A study of Mus musculus with 30 samples.

Results

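Secreted plasma proteins and apolipoproteins were examined as a group of 33 genes in AML12 cells in which FoxK1, FoxK2 or both had been knocked down, before and after insulin. The 33 symbols were matched to the Ensembl identifiers of the count tables without their version, and each had 1 identifier among the 49089 in the tables. They comprised 9 carrier and transport proteins, 11 apolipoproteins, 7 coagulation factors with their inhibitor, 4 complement components with their inhibitor, and the 2 glycoproteins vitronectin (Vtn) and pigment epithelium-derived factor (Serpinf1). Of the 33, 13 had enough counts to be tested (Alb, Afp, Ttr, Rbp4, Trf, Cp, Hp, Hpx, Apob, Clu, F5, C3 and Cfb), beside 11368 genes tested in all, and 20 did not pass the filter on low counts.

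AML12 is an immortal hepatocyte line from mice transgenic for human TGFα, so the cells keep part of the hepatocyte program. Cells received transient siRNA against a non-targeting sequence (Control), Foxk1 (FoxK1 KD), Foxk2 (FoxK2 KD) or both (DKD), were kept overnight without serum, and were then left without insulin (basal) or given 100 nM insulin for 6 h. Basal samples carry the label 0 min although the protocol describes a mock treatment, so the time of their harvest is not settled. The 8 groups had 4 replicates each, except Control and DKD cells after insulin with 3 each, and nothing in the labels says that replicates were separate cultures, so that the p-values measure the spread between these samples only. Each knockdown is the effect of siRNA in 1 cell line and is partial, as the target transcripts showed.

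Hepatocytes make most of the proteins of blood plasma. Albumin, transferrin, transthyretin and retinol binding protein carry hormones, iron and vitamin A, ceruloplasmin carries copper, and haptoglobin and hemopexin capture free hemoglobin and heme. Apolipoproteins build lipoproteins, with Apob as the structural protein of VLDL. The coagulation factors and complement components are mostly liver products. Some members, complement C3, factor B, haptoglobin and hemopexin among them, are acute-phase proteins, whose synthesis rises in inflammation. These are named as examples only, and the members were not grouped by this trait. The promoters of many of these genes are classical binding sites of liver transcription factors, among them the C/EBP and forkhead families, and FoxK1 and FoxK2 belong to the last of these.

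Promoter windows were available for 24 of the 33 members from RefSeq (GRCm38.p6), as 29 windows that run from 250 bases before to 50 bases after an annotated start. Apoc1, Apoc3, C4b, Cfb, Clu, Hp, Serping1, Trf and Ttr had no window in the table. The windows printed here, 5′ to 3′ on the strand of the gene, belong to C3, the member that moved most clearly with the knockdown, to Hpx and Rbp4, which rose with insulin, and to Cp, which differed in DKD cells. Capitals mark exact matches of 5 letter strings on either strand: the forkhead strings GTAAACA or else ATAAACA, the C/EBP strings TTGCAAT or else TTGCGCA, and the TATA box TATAAA.
C3 (chr17:57228087-57228386, minus strand): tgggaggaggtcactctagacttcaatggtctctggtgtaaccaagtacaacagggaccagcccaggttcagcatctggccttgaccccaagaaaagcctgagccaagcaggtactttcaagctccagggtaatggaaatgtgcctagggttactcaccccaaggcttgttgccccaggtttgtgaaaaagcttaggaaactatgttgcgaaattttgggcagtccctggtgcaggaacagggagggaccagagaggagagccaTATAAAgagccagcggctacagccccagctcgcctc
Hpx (chr7:105600067-105600366, minus strand): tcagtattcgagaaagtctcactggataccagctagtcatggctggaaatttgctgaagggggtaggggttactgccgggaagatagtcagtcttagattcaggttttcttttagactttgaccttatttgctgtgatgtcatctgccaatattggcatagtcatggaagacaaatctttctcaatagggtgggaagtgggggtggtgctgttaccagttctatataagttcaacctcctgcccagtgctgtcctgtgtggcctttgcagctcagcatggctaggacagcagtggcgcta
Rbp4, upstream start (chr19:38125272-38125571, minus strand): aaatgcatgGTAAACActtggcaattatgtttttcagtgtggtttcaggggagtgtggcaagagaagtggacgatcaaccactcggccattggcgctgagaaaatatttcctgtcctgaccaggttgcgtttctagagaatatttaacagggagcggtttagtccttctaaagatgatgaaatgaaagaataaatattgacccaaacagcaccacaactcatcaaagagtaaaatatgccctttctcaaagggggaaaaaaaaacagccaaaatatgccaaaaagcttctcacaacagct
Rbp4, downstream start (chr19:38124762-38125061, minus strand): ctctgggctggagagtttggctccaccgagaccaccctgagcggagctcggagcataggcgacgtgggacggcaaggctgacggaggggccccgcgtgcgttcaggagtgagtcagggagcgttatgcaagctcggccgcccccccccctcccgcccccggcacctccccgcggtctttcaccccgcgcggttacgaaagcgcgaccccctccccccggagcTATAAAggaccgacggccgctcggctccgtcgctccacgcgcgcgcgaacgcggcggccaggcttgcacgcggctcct
Cp, upstream start (chr3:19956804-19957103, plus strand): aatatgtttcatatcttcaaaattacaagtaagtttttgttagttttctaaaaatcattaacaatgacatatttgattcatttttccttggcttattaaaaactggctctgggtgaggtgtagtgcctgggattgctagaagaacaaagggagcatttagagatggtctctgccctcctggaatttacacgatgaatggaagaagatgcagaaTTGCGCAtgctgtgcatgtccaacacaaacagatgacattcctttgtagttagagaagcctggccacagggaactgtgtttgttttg
A forkhead string was found in 4 of the 29 windows (Apoa2, Apoe, Apoh and the upstream start of Rbp4), and 7.97% of all 32851 windows in the table held one. All 4 were GTAAACA, which 3.65% of all windows held, whereas ATAAACA (4.6% of all windows) was found in none of the 29. The C/EBP string TTGCGCA was found in 3 of 29 (2.02% of all), with 2 of these the overlapping windows of Cp, and TTGCAAT (2.22% of all) in none. TATAAA was found in 8 of 29 (13.6% of all). The C3 window held it 14 bases after the start, and the Hpx window held none of the 5 strings. These are matches of letters, not measured binding sites.

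Between 2141460 and 5668270 reads per library were counted on genes. Levels are given as CPM, the counts of a gene scaled to the library total, on library sizes adjusted by the TMM method, and fold changes are log2 values from edgeR (quasi-likelihood test), with p-values adjusted by Benjamini-Hochberg over the 11368 genes. A gene was called where the adjusted p was below 0.05. In bulk RNA, fewer cells that make a transcript and less of it per cell cannot be told apart. The targets were lower in every knockdown library than in any Control library of the same treatment. Foxk1 had 66.2 to 88.4 CPM in Control basal libraries, 27.4 to 42.0 in FoxK1 KD and 42.9 to 49.7 in DKD. Foxk2 had 132.7 to 149.7 CPM in Control basal libraries, 42.9 to 50.6 in FoxK2 KD and 41.9 to 54.7 in DKD. After insulin the corresponding ranges were 49.0 to 57.8, 28.0 to 35.3 and 30.5 to 40.9 CPM for Foxk1, and 157 to 168, 62.1 to 68.9 and 59.0 to 67.6 CPM for Foxk2. FoxK1 KD cells also had less Foxk2 at basal (log2 fold change -0.26, adjusted p = 0.0487).

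Some libraries stood apart. Control basal replicate 1 differed by more than 2-fold from the median of its group's other libraries in 542 genes, against 67 to 89 genes for the other 3. FoxK2 KD basal replicate 2 and FoxK1 KD basal replicate 1 had the highest Alb counts. In addition, 52 genes, 10 of them pseudogenes, were lower and 83 were higher in each of the 12 basal libraries of Control, FoxK1 KD and FoxK2 KD cells than in each of the other 18 libraries, so that in these genes the DKD basal libraries lay with the insulin libraries. More genes set all 16 basal libraries apart from all 14 insulin libraries, with 186 lower and 152 higher at basal, and in those the DKD basal libraries lay with the other basal libraries. Both splits were taken over the 11368 genes tested, so the 20 untested members could not be among them. None of the 13 tested members was among the genes of either split. So few of the genes tested were in either split that this says nothing about the members as a group. For the split of 12 against 18 libraries, the DKD comparison at basal and the insulin effects in Control, FoxK1 KD and FoxK2 KD cells cannot be told apart from it, whereas the FoxK1 KD and FoxK2 KD comparisons at basal, the insulin effect in DKD cells and the comparisons after insulin lie within 1 side. Of 14 hepatocyte markers, among them the members Alb and Ttr and also Hnf4a, Cebpa, Foxa1, Foxa2, Foxa3, Krt8, Krt18, Tat and Serpina1a, 12 passed the filter on low counts, and Asgr1 and Cps1 did not. Among cholangiocyte markers Krt19, Krt7, Sox9 and Spp1 were expressed and Epcam had no count. Markers of fibroblasts and stellate cells (0 of 8 tested, at most 1.44 CPM summed) and of endothelium (0 of 5, at most 0.706 CPM) were nearly absent, and of 6 macrophage markers only Csf1r was tested.

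The members made up 0.293 to 0.448% of all counts in a library. Per kb of exon, the order of the tested members over the 30 libraries was Clu (404 CPM per kb), Rbp4 (258), C3 (104), Cp (81.4), Hpx (55.2), Apob (42.2), Ttr (29.03), Cfb (12.9), Alb (4.42), Trf (4.32), Afp (1.27), Hp (0.925) and F5 (0.254). Albumin, the most abundant plasma protein in the animal, was therefore expressed at about the level of transferrin and far below clusterin and retinol binding protein. The order of C3 and Cp differed between groups. Cp was above C3 in Control cells at basal (74.3 against 61.0 CPM per kb) and after insulin (91.6 against 81.2) and in FoxK1 KD cells at basal (74.0 against 69.3), and C3 was above Cp in the other 5 groups. Clu, Cp, Apob, C3 and Rbp4 together held 94.9% of the members' counts. The means of neighbours in this order differed by less than the spread between libraries for several pairs, such as Alb and Trf, whose levels were 4.42 ± 4.93 and 4.32 ± 1.51 CPM per kb (SD, n = 30).

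**Figure D1:**
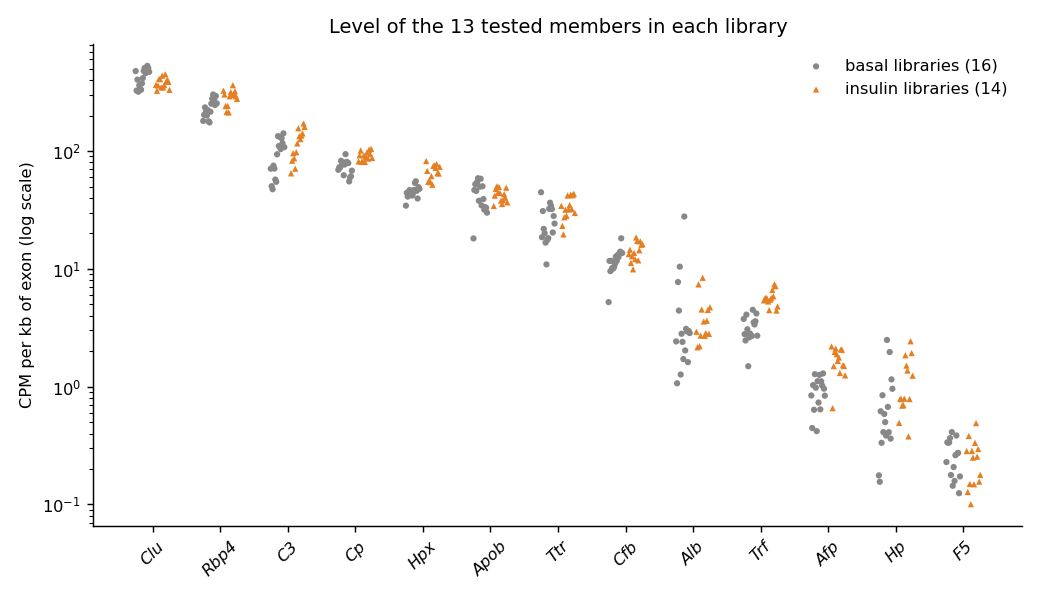
Level of each of the 13 tested members in each library, in CPM per kb of exon on a log axis, with members ordered by their mean over 30 libraries. Grey circles are the 16 basal libraries and orange triangles the 14 insulin libraries. Clu is highest at 404 CPM per kb and F5 lowest at 0.254, and 1 basal library of Alb reaches 27.8 CPM per kb.

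The 20 members that did not pass the filter were most of the apolipoproteins and nearly all of the coagulation proteins. Over the 30 libraries together they had between 4 counts (Apoc1) and 176 counts (Apoe), and no library had more than 20 counts of any of them. Among the apolipoproteins of HDL and chylomicrons, Apoa1, the main protein of HDL, had 60 counts in all, Apom 40, Apoa2 15 and Apoa4 10. Apoe and the small apolipoproteins encoded beside it, Apoc1 and Apoc4, had 176, 4 and 41 counts, Apoc3 had 7 and Apoh had 27. The 3 chains of fibrinogen, the clotting protein, had 59 (Fga), 65 (Fgb) and 39 counts (Fgg). Prothrombin (F2) had 21 counts, factor X (F10) 5 and antithrombin (Serpinc1) 49. Complement C4b had 100 counts and the C1 inhibitor Serping1 had 24, and Ahsg (fetuin-A), Vtn and Serpinf1 had 54, 26 and 24. When every gene with 1 count in any sample was kept (23784 genes), 1 of the 260 tests of these 20 members was called by edgeR and 23 had an unadjusted p below 0.05. Of all genes kept in this way, 0.0589% to 13.9% were called, depending on the comparison, with 12.3% for insulin in FoxK2 KD cells. Between 912 and 5463 of these 23784 genes had an unadjusted p below 0.05 in a comparison. The call among the 20 members was Ahsg, lower with insulin in FoxK2 KD cells (-3.79, SE 0.93, adjusted p = 0.000988). Its counts there were 0, 20, 2 and 1 at basal and 0, 0, 1 and 0 after insulin, so that 1 library held most of them. The filter asked for the equivalent of 10 counts at the median depth in at least 3 libraries, so Hp, with 160 counts in all and several libraries above that level, was tested while Apoe was not. A member that passed in this way through its highest libraries was bound to vary between libraries.

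Across comparisons, 9 of the 13 tested members were called at least once and Alb, Hp, Apob and F5 were not called in any. The share of all genes called at least once was not counted, so this number is no result about the members as a group. At basal, 0 members rose and 1 fell in FoxK1 KD cells (Ttr), where 3.39% of all genes tested rose and 4.71% fell, and the median log2 fold change of the members was 0.10 against -0.01 for all genes. In FoxK2 KD cells 1 member rose (C3) and 0 fell, where 0.211% of all genes rose and 0.167% fell. The members' median there was 0.30 against -0.01, with 12 of 13 above 0, as were 5426 of all 11368 genes tested. The members were measured in the same libraries, so they are not separate observations. In DKD cells 4 members rose (C3, Cfb, Clu and Rbp4) and 1 fell (Cp), where 10.3% of all genes rose and 10.8% fell, with a median of 0.16 against -0.001. For each count of 0, edgeR's quasi-likelihood test was used, and the members with an unadjusted p below 0.05 in either direction numbered 1 in FoxK1 KD and 6 in FoxK2 KD cells. Of the 11368 genes tested, 2677 and 1272 had such a p-value in these comparisons. DESeq2 and limma-voom called 1 member each in both comparisons. The FoxK1 KD count went to 0 without Control basal replicates 1 or 3 or FoxK1 KD basal replicates 2 or 3, and the DKD count went from 5 to 3 without DKD basal replicate 1. Without Control basal replicate 1 the DKD count was 5, with Apob called and Rbp4 not.

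Insulin raised more members than it lowered in each genotype. In Control cells 5 rose (Afp, Cp, Hpx, Rbp4 and Trf) and 0 fell, where 12.4% of all genes rose and 13.1% fell. FoxK1 KD cells had 6 members that rose (Afp, C3, Hpx, Rbp4, Trf and Ttr) and 0 that fell, beside 16.2% and 15.4% of all genes. In FoxK2 KD cells 4 rose (Afp, Hpx, Rbp4 and Trf) and 1 fell (Clu), beside 14.4% and 13.7%. In DKD cells 3 rose (Cp, Hpx and Trf) and 1 fell (Clu), beside 8.31% and 7.99%. The members' median log2 fold changes were 0.41, 0.31, 0.20 and 0.45 in the order Control, FoxK1 KD, FoxK2 KD, DKD, against -0.01 to 0.01 for all genes. Members with an unadjusted p below 0.05 numbered 7, 6, 7 and 6 of 13, and over all 11368 genes tested 4176, 4794, 4402 and 3429. The count of members called went from 6 to 3 in FoxK1 KD cells without FoxK1 KD basal replicate 3, and from 5 to 3 in FoxK2 KD cells without FoxK2 KD basal replicates 2 or 3 or insulin replicate 1, and also with a replicate block.

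After insulin, C3 was the only member that differed between a knockdown and Control. In DKD cells it rose and 0 members fell, beside 0.871% and 0.343% of all genes. In FoxK1 KD cells 0 members rose or fell, beside 1.86% and 1.72% of all genes, and in FoxK2 KD cells 0 rose or fell, beside 0.0088% and 0.0176%. Members with an unadjusted p below 0.05 numbered 2 in FoxK1 KD, 1 in FoxK2 KD and 3 in DKD cells. Over all 11368 genes tested the numbers were 1995, 685 and 1449. DESeq2 called 0, 1 and 1 members and limma-voom 0, 0 and 1. Without Control insulin replicate 3 the count in FoxK1 KD cells was 1. The difference between the insulin effect in knockdown and Control cells was called for 0 members in each genotype by edgeR's quasi-likelihood test, by DESeq2 and by limma-voom. Over all genes, 0% were higher and 0% lower for FoxK1 KD minus Control and for FoxK2 KD minus Control, and 1% were higher and 0.537% lower for DKD minus Control. An unadjusted p below 0.05 was reached by 3 members for FoxK1 KD, 0 for FoxK2 KD and 2 for DKD cells. Of the 11368 genes tested, 1519, 625 and 1661 reached it. An insulin effect called in 1 genotype and not in another is therefore not shown to differ between them.

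**Figure D2:**
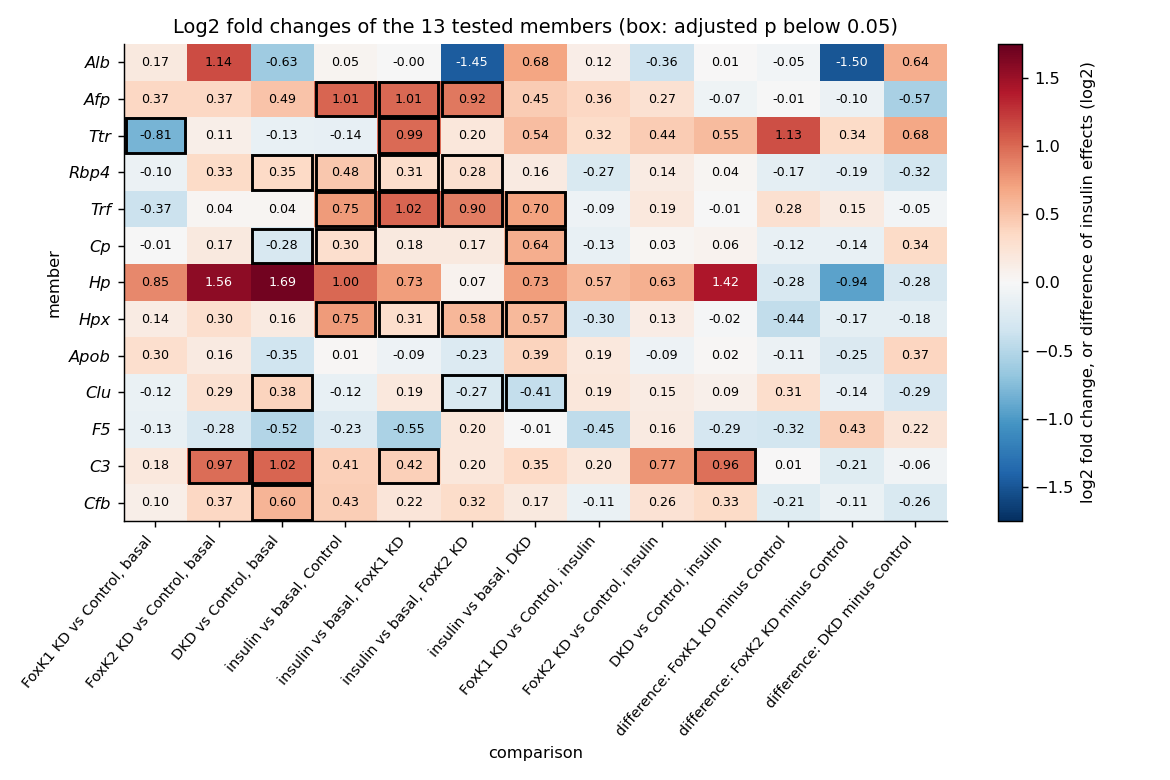
Log2 fold change of each tested member (rows, in the order of their roles) in each of the 13 comparisons (columns), with the last 3 columns giving the insulin effect in a knockdown minus that in Control. Colour runs from blue (lower) to red (higher), and a box marks an adjusted p below 0.05. Boxes are gathered in the 4 insulin columns for Trf and Hpx and in the knockdown columns for C3, while the large values of Alb and Hp carry no box.

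Among the carrier proteins, transferrin (Trf, ENSMUSG00000032554.15, chr9:103204001-103230444 of GRCm38), the iron carrier of plasma, rose with insulin in all 4 genotypes. In Control cells it had 12.5, 9.25, 8.19 and 13.6 CPM at basal and 17.9, 18.6 and 18.9 after insulin, so that every insulin library exceeded every basal library (log2 fold change 0.75, SE 0.20, adjusted p = 0.0052). In FoxK1 KD cells the values were 10.2, 4.95, 8.70 and 9.37 CPM at basal and 18.5, 17.6, 14.8 and 18.2 after insulin (1.02, SE 0.21, adjusted p = 0.000249). In FoxK2 KD cells they were 8.95, 8.94, 14.9 and 11.7 and 18.7, 22.0, 19.4 and 24.6 CPM (0.90, SE 0.18, adjusted p = 0.000261). These groups did not overlap either. In DKD cells Trf had 11.2, 11.9, 13.9 and 8.99 CPM at basal and 23.7, 14.7 and 15.9 after insulin (0.70, SE 0.21, adjusted p = 0.0165). The DKD call was lost without DKD basal replicate 4 (0.59, adjusted p = 0.0664) and without DKD insulin replicate 1 (0.45, adjusted p = 0.21). The insulin effects of the knockdowns differed from that of Control by 0.28, 0.15 and -0.05 for FoxK1 KD, FoxK2 KD and DKD, each within 1 SE of 0 (0.29, 0.27 and 0.29).

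Hemopexin (Hpx, ENSMUSG00000030895.9, chr7:105591613-105600137), which binds free heme, also rose with insulin in all 4 genotypes, and no insulin library overlapped the basal libraries of its genotype. Control cells had 51.6, 66.3, 61.5 and 64.3 CPM at basal and 123, 102 and 82.0 after insulin (0.75, SE 0.11, adjusted p = 2.58e-06). FoxK1 KD cells had 69.9, 67.7, 68.7 and 62.9 CPM at basal and 83.5, 81.8, 91.9 and 77.6 after insulin (0.31, SE 0.10, adjusted p = 0.0206). The rise was smallest in these cells, but its difference from Control did not pass the threshold (-0.44, SE 0.15, adjusted p = 0.226, unadjusted p = 0.00611). FoxK2 KD cells had 66.1, 70.1, 80.4 and 83.1 CPM at basal and 112, 113, 108 and 116 after insulin (0.58, SE 0.10, adjusted p = 2.91e-05). DKD cells had 68.9, 59.3, 74.0 and 71.6 CPM at basal and 97.3, 96.7 and 110.1 after insulin (0.57, SE 0.11, adjusted p = 0.00028). In FoxK1 KD cells the call was lost without FoxK1 KD basal replicate 4 (0.28, adjusted p = 0.0613), without FoxK1 KD insulin replicate 3 (0.27, adjusted p = 0.0728) with an offset for GC content and length (0.15, adjusted p = 0.294) and when every gene with 1 count in any sample was kept (0.28, adjusted p = 0.0644). After insulin, FoxK1 KD cells were called lower than Control without Control insulin replicate 3 (-0.45, adjusted p = 0.0243), against -0.30 with it (adjusted p = 0.127).

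Retinol binding protein (Rbp4, ENSMUSG00000024990.12, chr19:38116629-38125281), the plasma carrier of vitamin A, was the second most abundant member per kb and moved by smaller steps. At basal it had 242, 273, 315 and 289 CPM in Control, 270, 299, 240.4 and 235 in FoxK1 KD, 289.6, 339, 374 and 406 in FoxK2 KD and 367, 331, 394 and 341 in DKD cells. After insulin it had 437, 406 and 324 CPM in Control, 288, 325, 286 and 392 in FoxK1 KD, 425, 402, 487 and 403 in FoxK2 KD and 432, 393 and 373 in DKD cells. The highest values were in FoxK2 KD cells after insulin and the lowest in FoxK1 KD and Control cells at basal. Insulin raised it in Control cells without overlap (0.48, SE 0.12, adjusted p = 0.00251), and with overlap in FoxK1 KD (0.31, SE 0.11, adjusted p = 0.0316) and FoxK2 KD cells (0.28, SE 0.11, adjusted p = 0.0456). In DKD cells the change was 0.16 (adjusted p = 0.387). DKD cells had more than Control at basal, without overlap (0.35, SE 0.11, adjusted p = 0.0181), a call that ended without Control basal replicate 1, DKD basal replicate 1 or DKD basal replicate 3 (0.29 to 0.33, adjusted p from 0.0514 to 0.0735) and with the GC content and length offset (0.16, adjusted p = 0.262). The call in FoxK1 KD cells ended without FoxK1 KD basal replicates 3 or 4 or insulin replicates 2 or 4 (0.20 to 0.30, adjusted p from 0.0668 to 0.197) and with that offset (0.08, adjusted p = 0.557). The call in FoxK2 KD cells ended without FoxK2 KD basal replicates 1, 2 or 3 or insulin replicates 1 or 3 (0.19 to 0.31, adjusted p from 0.0509 to 0.207), with the offset (0.21, adjusted p = 0.0874) and with a replicate block (0.29, adjusted p = 0.0537).

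Alpha-fetoprotein (Afp, ENSMUSG00000054932.6, chr5:90490737-90508907), the albumin-like carrier of fetal plasma, rose with insulin from a low level, of 6 to 28 counts per library. Control cells had 2.83, 1.5, 3.47 and 2.14 CPM at basal and 7.38, 2.21 and 5.03 after insulin, with 1 insulin library inside the basal range (1.01, SE 0.34, adjusted p = 0.0252). FoxK1 KD cells had 4.30, 3.30, 1.41 and 3.75 CPM at basal and 6.65, 7.09, 6.35 and 5.57 after insulin, without overlap (1.01, SE 0.31, adjusted p = 0.0114). FoxK2 KD cells had 2.47, 4.24, 2.16 and 3.74 CPM at basal and 5.95, 4.40, 6.98 and 6.93 after insulin, also without overlap (0.92, SE 0.29, adjusted p = 0.0156). In DKD cells 3.45, 4.36, 3.24 and 2.82 CPM at basal and 5.12, 5.03 and 4.20 after insulin gave a change that did not pass the threshold (0.45, SE 0.33, adjusted p = 0.392), and the difference of this insulin effect from that of Control was -0.57, SE 0.48, adjusted p = 0.635. The Control call was lost without Control basal replicates 2 or 4 or Control insulin replicates 1 or 3 (0.55 to 1.02, adjusted p from 0.0609 to 0.352) with limma-voom (0.91, adjusted p = 0.0602) and when only those 2 groups were fitted (1.02, adjusted p = 0.138). The other calls were lost without FoxK1 KD basal replicate 3 (0.73, adjusted p = 0.0663) and without FoxK2 KD basal replicate 3 (0.76, adjusted p = 0.0681).

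**Figure D3:**
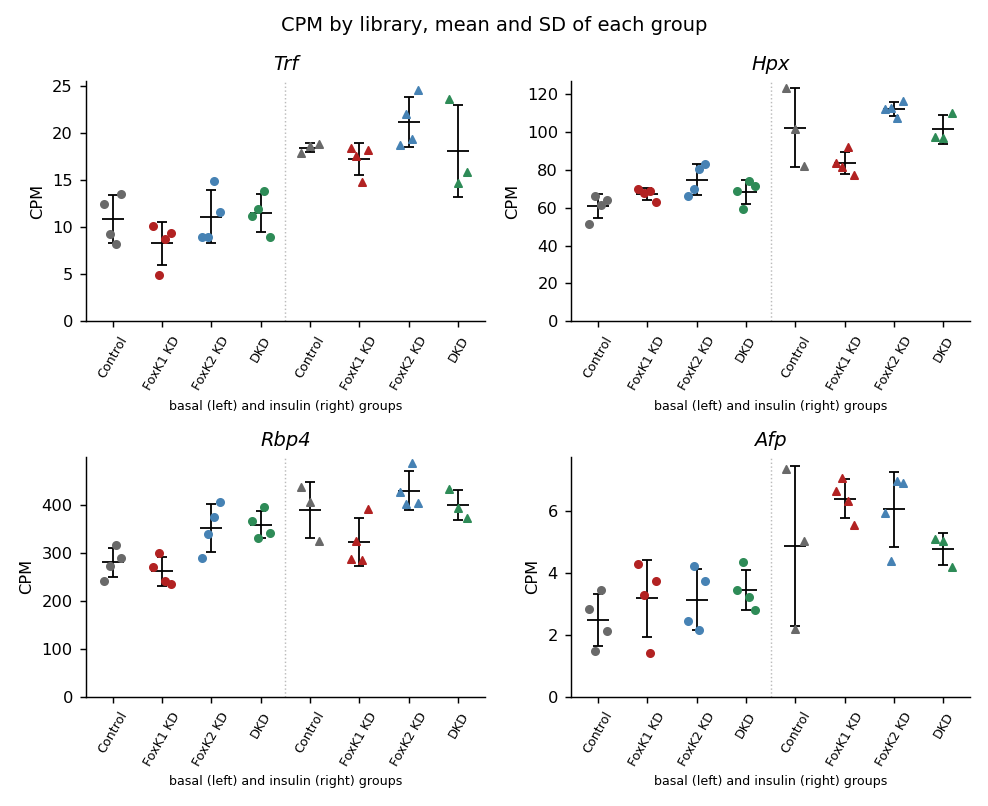
CPM of Trf, Hpx, Rbp4 and Afp in each library of the 8 groups, with basal groups left and insulin groups right of the dotted line in each panel. Points are libraries and black bars the mean and SD of the group (n = 4, or 3 for Control and DKD after insulin). For Trf and Hpx the insulin points of each genotype lie above its basal points.

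The summed cholangiocyte markers had a higher median after insulin than at basal in each genotype, a difference that was not tested. In Control cells the ranges overlapped, with 1691 to 2153 CPM at basal and 2055 to 2587 after insulin. The summed level of the 5 markers, of which Epcam was at 0 in every library, was 1339 to 2228 CPM in the 16 basal libraries and 2055 to 2825 in the 14 insulin libraries, with group medians of 1604 to 2110 and 2168 to 2698. The summed level of the 14 hepatocyte markers, which include the members Alb and Ttr, ran from 1585 to 2522 CPM at basal and from 1864 to 2426 after insulin. The 6 macrophage markers summed to 8.22 to 22.1 CPM at basal and 4.09 to 13.7 CPM after insulin, with Csf1r the only one tested and Adgre1 at 0. Between genotypes at basal, the hepatocyte sum was 1585 to 2522 CPM in Control and 2399 to 2495 in DKD cells, and the macrophage sum was 8.22 to 12.9 CPM in Control, 17.9 to 22.1 in FoxK1 KD, 11.1 to 13.4 in FoxK2 KD and 15.7 to 18.2 in DKD cells. The part of these in the members' changes was not tested.

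Ceruloplasmin (Cp, ENSMUSG00000003617.16, chr3:19957054-20009145), the copper-carrying ferroxidase, was lower in DKD cells than in Control cells at basal, a difference that was not called after insulin. At basal it had 663, 696, 695 and 790.5 CPM in Control and 528, 572, 585 and 652 in DKD cells, without overlap (-0.28, SE 0.09, adjusted p = 0.0197). After insulin it had 781, 881 and 967 CPM in Control and 902, 998 and 836 in DKD cells (0.06, SE 0.10, adjusted p = 0.883). Insulin raised it in DKD cells without overlap (0.64, SE 0.10, adjusted p = 8.62e-06), which remained called without any 1 library, and in Control cells with 1 insulin library just inside the basal range (0.30, SE 0.09, adjusted p = 0.0176). The difference between these insulin effects did not pass the threshold (0.34, SE 0.13, adjusted p = 0.206, unadjusted p = 0.0163). FoxK1 KD cells had 596 to 764 CPM at basal and 773 to 878 after insulin, and FoxK2 KD cells 757 to 901 and 825 to 982, with changes of 0.18 (adjusted p = 0.124) and 0.17 (adjusted p = 0.162). The lower basal level in DKD cells was not called with the GC content and length offset (-0.11, adjusted p = 0.351), without Control basal replicate 4 (-0.23, adjusted p = 0.0841) or without DKD basal replicate 1 (-0.25, adjusted p = 0.0804), and the rise in Control cells was not called without Control insulin replicate 3 (0.23, adjusted p = 0.127). Both calls were also lost when only the groups compared were fitted (-0.28, adjusted p = 0.0693 at basal, and 0.31, adjusted p = 0.116 for insulin in Control). With the GC content and length offset, insulin changed Cp in FoxK1 KD (0.38, adjusted p = 0.00011) and FoxK2 KD cells (0.28, adjusted p = 0.00308) past the threshold.

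Transthyretin (Ttr, ENSMUSG00000061808.3), the carrier of thyroxine and of the Rbp4 complex, was lower in FoxK1 KD than in Control cells at basal and rose with insulin in FoxK1 KD cells. Control cells had 53.0, 22.0, 36.7 and 25.9 CPM at basal and FoxK1 KD cells had 23.8, 19.8, 12.9 and 20.9 (-0.81, SE 0.23, adjusted p = 0.0262). The ranges overlapped, because the lowest Control library, at 22.0 CPM, lay below the highest FoxK1 KD library. After insulin FoxK1 KD cells had 32.5, 37.7, 33.4 and 49.7 CPM, all above their basal values (0.99, SE 0.24, adjusted p = 0.00181), and Control cells had 40.6, 27.5 and 23.3 (-0.14, SE 0.24, adjusted p = 0.717). The difference between these insulin effects was the largest positive one among the members and did not pass the threshold (1.13, SE 0.34, adjusted p = 0.192, unadjusted p = 0.00206). The remaining groups ranged from 21.6 to 43.2 CPM in FoxK2 KD and 24.1 to 38.2 in DKD cells at basal to 37.9 to 50.7 and 35.4 to 51.5 after insulin, with no call. The lower level in FoxK1 KD cells was not called without Control basal replicate 1, the library that stood apart (-0.53, adjusted p = 0.188), nor without Control basal replicate 3 or FoxK1 KD basal replicates 2 or 3 (-0.81 to -0.53, adjusted p from 0.0529 to 0.188 over these 4). It was also lost when only those 2 groups were fitted (-0.81, adjusted p = 0.165). When every gene with 1 count in any sample was kept, the difference between the insulin effects of FoxK1 KD and Control cells was called (1.11, SE 0.20, adjusted p = 3.70e-05). The value itself was close to the 1.13 of the main fit, and it was the SE that fell, from 0.34.

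Albumin (Alb, ENSMUSG00000029368.10, chr5:90460897-90476602) was not called in any comparison, although other settings gave calls, and its highest values came from single libraries. Control cells had 5.67, 2.50, 18.1 and 10.4 CPM at basal and 6.86, 5.06 and 17.3 after insulin. FoxK1 KD cells had 24.4, 2.97, 6.59 and 5.62 CPM at basal and 5.17, 6.35, 10.6 and 19.7 after insulin. FoxK2 KD cells had 4.01, 65.2, 4.75 and 7.25 CPM at basal and 8.38, 6.33, 6.67 and 8.50 after insulin. The high values in the knockdowns at basal came from 1 library each, FoxK1 KD replicate 1 with 108 counts and FoxK2 KD replicate 2 with 277 counts, while the median over 30 libraries was 24.5 counts. DKD cells had 6.89, 3.78, 6.94 and 6.68 CPM at basal and 10.5, 6.58 and 11.1 after insulin. The largest fitted changes were the fall with insulin in FoxK2 KD cells (-1.45, SE 0.62, adjusted p = 0.0794) and its difference from Control (-1.50, SE 0.97, adjusted p = 0.889), neither called. The fall in FoxK2 KD cells was called without FoxK2 KD basal replicates 1, 3 or 4 (-1.80 to -1.74, adjusted p from 0.0282 to 0.0397), and when every gene with 1 count in any sample was kept (-1.47, SE 0.19, adjusted p = 1.09e-12), as was its difference from Control (-1.50, adjusted p = 0.00051). That filter also gave calls for Alb at basal in FoxK2 KD (1.13, adjusted p = 1.41e-07) and DKD cells (-0.65, adjusted p = 0.0415). The SEs there were 0.18 and 0.22, against 0.58 and 0.74 in the main fit, although both groups overlapped Control. Without FoxK2 KD basal replicate 2 the insulin effect in FoxK2 KD cells and its difference from Control changed sign, to 0.45 (adjusted p = 0.608) and 0.40 (adjusted p = 0.974). The basal difference between FoxK2 KD and Control cells then went from 1.14 to -0.77 (adjusted p = 0.473 and 0.686). Without FoxK1 KD basal replicate 1 the basal difference of FoxK1 KD cells went from 0.17 to -0.83 (adjusted p = 0.554).

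Other transcripts of mature liver are given as a description only. A list of 9 (Ahsg, Apoa1, Fga, Fgb, Mup3, Mup20, Cyp2e1, Cyp3a11 and Cps1) was chosen after its values were seen and holds 4 members, so it supports nothing about the libraries it was chosen on. It summed to 133 counts in FoxK2 KD basal replicate 2, 35 in FoxK1 KD basal replicate 1, 31 and 27 in DKD insulin replicates 1 and 3, and 24 in each of Control basal replicates 3 and 4, with a median of 12.5 over the 30 libraries. FoxK1 KD basal replicate 1 was therefore close to several other libraries on the list. The source of these transcripts was not tested.

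**Figure D4:**
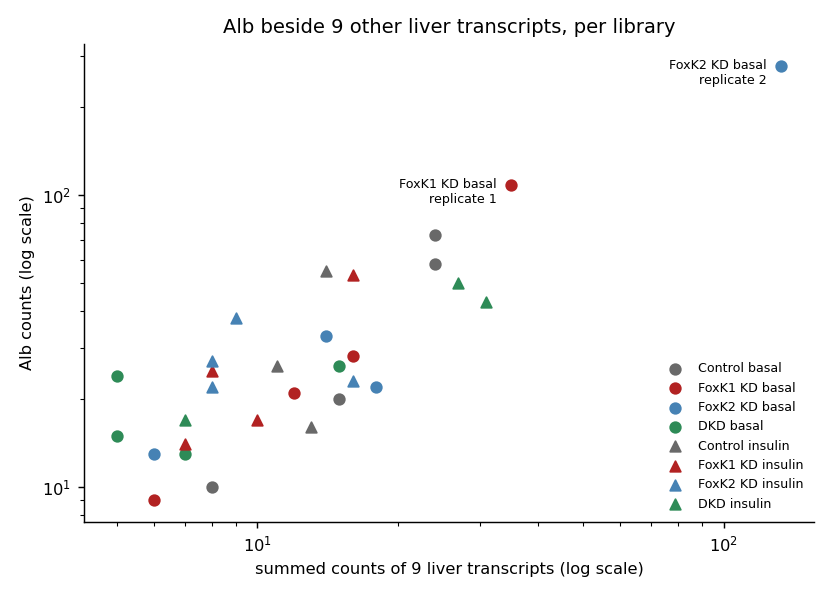
Alb counts against the summed counts of 9 other liver transcripts in each of the 30 libraries, both on log axes, with colour for genotype and shape for treatment. FoxK2 KD basal replicate 2 (277 and 133 counts) lies apart at the upper right, and FoxK1 KD basal replicate 1 (108 and 35 counts) has the next highest Alb count but lies close to DKD insulin replicate 1 (31 counts) on the list.

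Haptoglobin (Hp, ENSMUSG00000031722.10, chr8:109575128-109579172), which binds free hemoglobin, had only 1 to 17 counts per library. It had 0.283, 0.25, 0.992 and 0.536 CPM in Control, 1.36, 0.66, 0.941 and 0.803 in FoxK1 KD, 0.617, 4.001, 1.08 and 0.659 in FoxK2 KD and 3.16, 0.582, 1.85 and 1.54 in DKD cells at basal. After insulin it had 0.791, 1.26 and 1.26 CPM in Control, 1.11, 1.12, 1.27 and 2.97 in FoxK1 KD, 2.42, 2.20, 0.607 and 1.26 in FoxK2 KD and 3.90, 3.10 and 1.99 in DKD cells. The higher values in DKD cells gave the largest positive fold changes of any member between a knockdown and Control, at basal (1.69, SE 0.63, adjusted p = 0.0512) and after insulin (1.42, SE 0.58, adjusted p = 0.27), and neither passed the threshold. The basal difference was called without Control basal replicate 3 (2.12, adjusted p = 0.0378) or DKD basal replicate 2 (1.99, adjusted p = 0.0256). At basal the DKD and Control ranges overlapped, and after insulin they did not. Hp passed the filter on low counts through its highest libraries. DKD libraries at 3.16 (basal), 3.90 and 3.10 CPM (insulin) were among these. A high level in DKD cells was thus in part a condition of its being tested, and these differences are given as description only.

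Of the 11 apolipoproteins only clusterin (ENSMUSG00000022037.14, chr14:65968483-65981547), also known as apolipoprotein J and a secreted chaperone, and Apob (ENSMUSG00000020609.14, chr12:7977648-8016835) were measurable. At basal Clu had 1643, 1122, 1389 and 1098 CPM in Control, 1243, 1158, 1140 and 1291 in FoxK1 KD, 1431, 1649, 1745 and 1577 in FoxK2 KD and 1677, 1817, 1737 and 1616 in DKD cells. DKD cells had more than Control (0.38, SE 0.10, adjusted p = 0.00599), although Control basal replicate 1 lay inside the DKD range. After insulin Clu had 1253, 1119 and 1240 CPM in Control, 1407, 1403, 1193 and 1502 in FoxK1 KD, 1192, 1248, 1544 and 1345 in FoxK2 KD and 1388, 1329 and 1138 in DKD cells. Insulin lowered it in DKD cells without overlap (-0.41, SE 0.11, adjusted p = 0.00782) and in FoxK2 KD cells with overlap (-0.27, SE 0.10, adjusted p = 0.0452), whereas the values in Control (-0.12, adjusted p = 0.432) and FoxK1 KD cells (0.19, adjusted p = 0.155) were not called. After insulin the knockdowns differed from Control by 0.19, 0.15 and 0.09 (FoxK1 KD, FoxK2 KD and DKD), with no call. The FoxK2 KD insulin call was lost with a replicate block (-0.27, adjusted p = 0.0558) and without FoxK2 KD basal replicates 2, 3 or 4 or insulin replicates 1, 2 or 4 (-0.27 to -0.21, adjusted p from 0.0697 to 0.16). The DKD insulin call was lost without DKD insulin replicate 3 (-0.33, adjusted p = 0.0677), and the DKD basal call with the GC content and length offset (0.24, adjusted p = 0.0512) and when only those 2 groups were fitted (0.38, adjusted p = 0.0553).

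Apob was well measured, with 891 to 3583 counts per library, and was not called in any of the 13 comparisons. Its group means ran from 446 ± 21.1 CPM in DKD basal to 700.1 ± 126 in FoxK1 KD basal cells (SD, n = 4 each). Control basal replicate 1 had 253 CPM while the other 3 Control basal libraries had 639.8 to 729 CPM. With it included, the log2 difference of DKD from Control cells at basal was -0.35 (SE 0.18, adjusted p = 0.175), and that between insulin and basal in DKD cells was 0.39 (SE 0.20, adjusted p = 0.182). Without Control basal replicate 1 the difference of DKD from Control cells at basal was -0.60 (SE 0.13, adjusted p = 0.00069) and passed the threshold, with DKD libraries at 418 to 465 CPM, all lower than the other 3 Control libraries. Without it the insulin effect of DKD minus that of Control cells was 0.61 (SE 0.19, adjusted p = 0.0641), and FoxK1 KD (0.06) and FoxK2 KD cells (-0.08) at basal were not called. When every gene with 1 count in any sample was kept, Apob was called in DKD cells at basal (-0.38, adjusted p = 0.000664), and the insulin effect in DKD cells was called there (0.39, adjusted p = 0.00164) and in a fit of only those 2 groups (0.39, adjusted p = 0.00308). Under that filter the SEs were 0.09 and 0.10, against 0.18 and 0.20 in the main fit, while the fold changes were close to those of the main fit.

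Coagulation factor V (F5, ENSMUSG00000026579.8, chr1:164151838-164220277) was the only clotting protein tested, at 2 to 14 counts per library. At basal it had 1.70, 2.50, 2.48 and 2.50 CPM in Control, 2.71, 1.32, 3.06 and 1.07 in FoxK1 KD, 1.54, 1.18, 1.95 and 2.86 in FoxK2 KD and 2.01, 2.04, 0.925 and 1.28 in DKD cells. After insulin it had 2.11, 0.948 and 2.83 CPM in Control, 1.11, 0.747, 2.12 and 1.86 in FoxK1 KD, 1.10, 2.48, 3.64 and 1.89 in FoxK2 KD and 2.19, 1.16 and 1.33 in DKD cells. The groups of every comparison overlapped, and its log2 differences between groups ran from -0.55 to 0.20, with no call and standard errors of 0.36 to 0.50.

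Complement C3 (ENSMUSG00000024164.15, chr17:57203970-57228136), the central component of the complement cascade, was the member that differed most clearly between the knockdowns and Control, and it was high in FoxK2 KD and DKD cells. At basal it had 365, 259, 244 and 387 CPM in Control and 365, 295, 282 and 483 in FoxK1 KD cells, which overlapped (0.18, SE 0.15, adjusted p = 0.497). FoxK2 KD cells had 688, 568, 678 and 535 CPM and DKD cells 661, 601, 727 and 556, and all 8 of these libraries exceeded the highest of the 8 Control and FoxK1 KD libraries. The rise over Control was 0.97, SE 0.15, adjusted p = 0.000938 in FoxK2 KD cells and 1.02, SE 0.15, adjusted p = 1.55e-05 in DKD cells. After insulin C3 had 333, 426 and 494 CPM in Control, 446, 365, 502 and 597 in FoxK1 KD, 803, 689, 649.5 and 696 in FoxK2 KD and 726, 882 and 825 in DKD cells. Again every FoxK2 KD and DKD library exceeded every Control and FoxK1 KD library. The rise over Control was called in DKD cells (0.96, SE 0.18, adjusted p = 0.0018) and missed the threshold in FoxK2 KD cells (0.77, SE 0.17, adjusted p = 0.0852), where DESeq2 called it (adjusted p = 0.0212), as did a fit of only those 2 groups (0.77, adjusted p = 0.0134). The log2 differences of C3 between insulin and basal were 0.41, 0.42, 0.20 and 0.35 in the order Control, FoxK1 KD, FoxK2 KD, DKD, and only the FoxK1 KD value was called (adjusted p = 0.0337). The Control value was called without Control basal replicates 1 or 4 or Control insulin replicate 1 (0.49 to 0.54, adjusted p from 0.023 to 0.0282). The FoxK1 KD call was lost without FoxK1 KD basal replicates 1, 2 or 3 or insulin replicates 3 or 4 (0.30 to 0.43, adjusted p from 0.0528 to 0.177) and with the GC content and length offset (0.32, adjusted p = 0.0979). The 3 calls between knockdown and Control remained without any 1 library, while the FoxK2 KD call at basal was lost when only those 2 groups were fitted (0.98, adjusted p = 0.0878).

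Factor B (Cfb, ENSMUSG00000090231.10, chr17:34856374-34862518), the protease of the alternative complement pathway, followed a similar order at a lower level. Its group means at basal were 27.0 ± 8.62 CPM in Control, 29.3 ± 1.18 in FoxK1 KD, 35.3 ± 1.70 in FoxK2 KD and 42.0 ± 6.28 in DKD cells (SD, n = 4 each). Only the DKD rise was called (0.60, SE 0.15, adjusted p = 0.00518), and all DKD libraries (38.5 to 51.4 CPM) exceeded all Control libraries (14.7 to 33.04). Control basal replicate 1 was the lowest of these, at 14.7 CPM, and without it the rise was 0.40, adjusted p = 0.0163, while the call was lost when only those 2 groups were fitted (0.61, adjusted p = 0.0641). After insulin the ranges were 31.8 to 41.1 CPM in Control and 45.3 to 48.3 in DKD cells, which did not overlap, with a difference of 0.33, SE 0.17, adjusted p = 0.415. Cfb lies next to C2 on chromosome 17, and how the authors assigned reads that could belong to both was not given in the sources used here.

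**Figure D5:**
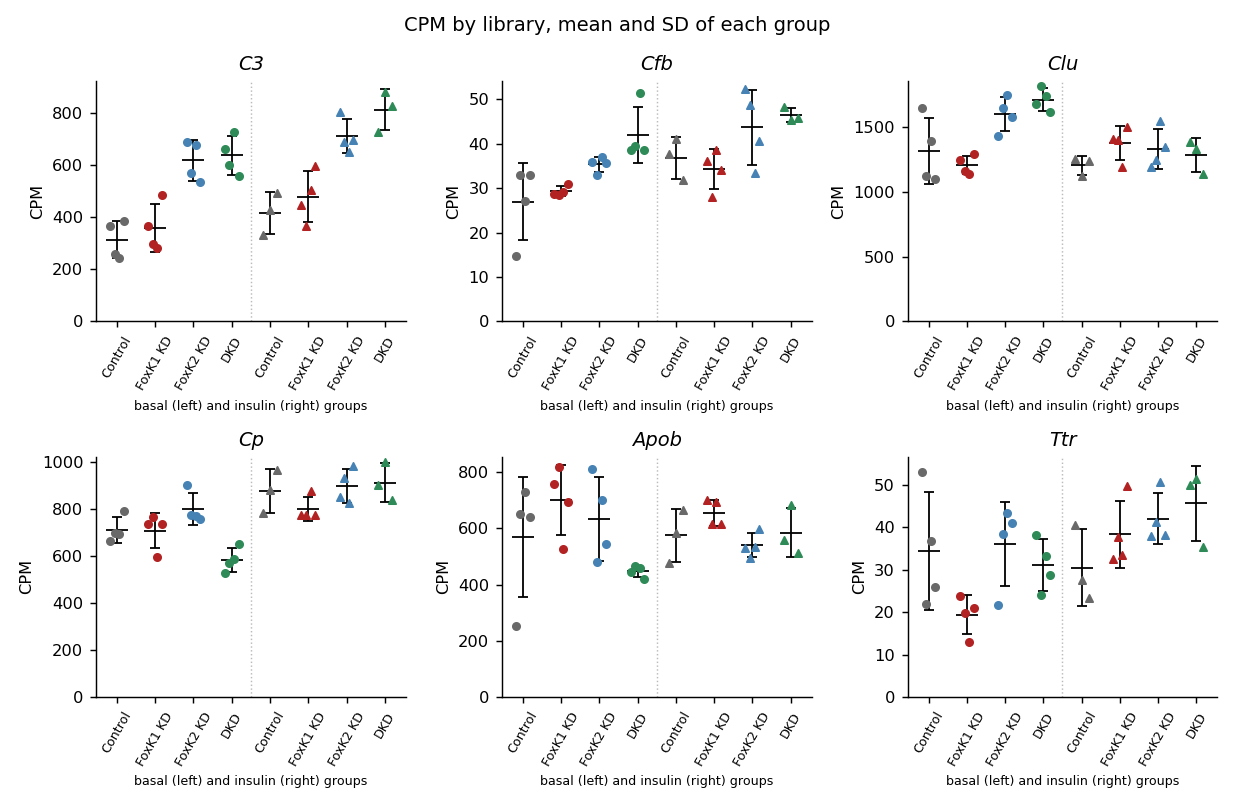
CPM of C3, Cfb, Clu, Cp, Apob and Ttr in each library of the 8 groups, with basal groups left and insulin groups right of the dotted line. Points are libraries and black bars the mean and SD of the group (n = 4, or 3 for Control and DKD after insulin). C3 forms an upper band in the FoxK2 KD and DKD groups on both sides, and the low Control basal point of Apob (253 CPM) and Cfb (14.7 CPM) is replicate 1.

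Other liver-secreted and lipoprotein-handling plasma proteins were taken as a list of 83, of which 82 had an identifier and 32 were tested. In DKD cells at basal 13 rose and 3 fell, with a median log2 fold change of 0.42 against -0.001 for all genes, of which 10.3% rose and 10.8% fell. The largest rises were in Lcn2, an acute-phase iron-siderophore binder (1.47, SE 0.22, adjusted p = 1.19e-05), Pltp, the phospholipid transfer protein (1.14, SE 0.17, adjusted p = 1.01e-05), and Serpina1a, an alpha-1-antitrypsin (1.09, SE 0.14, adjusted p = 1.04e-06). Among the falls were Selenop, the selenium carrier (-0.59), and Itih2 (-0.53). FoxK2 KD cells at basal had 5 that rose (Lcn2 by 1.05, Saa3 by 0.91 and Serpina1a by 0.73 the most) and 0 that fell, beside 0.211% and 0.167% of all genes, and FoxK1 KD cells 5 that rose (Serpina1a by 0.84, Masp1 by 0.75 and Serpina1b by 0.57 the most) and 3 that fell, beside 3.39% and 4.71%. After insulin 5 rose and 0 fell in DKD cells, beside 0.871% and 0.343% of all genes. In FoxK1 KD cells 4 rose and 1 fell, beside 1.86% and 1.72%, and 0 were called in FoxK2 KD cells, beside 0.0088% and 0.0176%. In FoxK2 KD cells 9 of the 32 had an unadjusted p below 0.05, as did 685 of the 11368 genes tested. Serpina1a was higher than in Control in FoxK1 KD (1.30, SE 0.17, adjusted p = 7.58e-06) and DKD cells (1.48, SE 0.17, adjusted p = 1.27e-06) after insulin. Serpina1a and Serpina1b are near-identical copies that can share reads, so their separate values are uncertain.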

How the data were processed

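RNA-seq libraries of polyadenylated RNA from AML12 cells were made by the authors with the NEBNext kit. Per the labels, reads were processed with CASAVA 1.8, STAR 2.4.2a and featureCounts against GRCm38.p4. The authors deposited raw counts per gene and sample, without normalization, and nothing else was used. The counting of reads that fit several genes was not given in the sources used here.

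Of 49089 identifiers, 48435 were found in GENCODE M21, which gave symbols, coordinates and exon lengths, the latter used for CPM per kb. Genes with enough counts by edgeR's filterByExpr (minimum count 10) numbered 11368. TMM factors scaled the libraries, and all 8 groups entered 1 model, tested with edgeR's quasi-likelihood test (edgeR 4.0.16, R 4.3.3) and Benjamini-Hochberg adjustment over all tested genes. The threshold was an adjusted p below 0.05 in each of 13 comparisons. The study's methods name limma for these data, and its thresholds, an adjusted p below 0.25 and for insulin effects also a fold change above 1.5, were tried as an alternative. Standard errors (SE) were taken from the F statistic, as the size of the log2 fold change over its root. Among 42 pairs of libraries within groups none agreed within sampling noise, with a chi-square of at least 1.75 per degree of freedom. Totals of 2141460 to 5668270 counts per library set the precision, and the number of members with at least 10 counts in every library was 9 of 33. The scripts were tested on simulated data.

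Other alternatives were DESeq2 1.42.0, limma-voom (limma 3.58.1), a filter of 1 count in any sample, a replicate block, fitting only the groups compared, a GC content and length offset, a fold-change minimum, and leaving out each library. Values in every sample are given for members called in at least 3 comparisons and for those with the largest change in each kind of comparison. Of the other plasma proteins at most 3 in each direction were named by size in a comparison, except in the closing section. Some genes of the marker and plasma protein lists and 1 of the promoter motifs are not reported here. The members, lists and tests were chosen with earlier results of these data known.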

Additional observations from a re-analysis of the deposited data

Results flagged for a closer look

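In the groups of 4 libraries, 78 sets of values of the tested members were looked at for a highest or lowest library set apart from the other 3, and 10 were found, where chance gives about 1 in 20. Alb was high in FoxK1 KD basal replicate 1 (24.4 CPM, the others 2.97 to 6.59) and FoxK2 KD basal replicate 2 (65.2 CPM, the others 4.01 to 7.25), and low in DKD basal replicate 2 (3.78 CPM, the others 6.68 to 6.94). Hp was high in the same FoxK2 KD basal replicate 2 (4.001 CPM, the others 0.617 to 1.08) and in FoxK1 KD insulin replicate 4 (2.97 CPM, the others 1.11 to 1.27). Cp was low in FoxK1 KD basal replicate 3 (596 CPM, the others 736 to 763.5), and high in FoxK2 KD basal replicate 1 (901 CPM, the others 757 to 774) and FoxK1 KD insulin replicate 3 (878 CPM, the others 773 to 775). F5 was low in Control basal replicate 1 (1.70 CPM, the others 2.48 to 2.50). Cfb was high in DKD basal replicate 3 (51.4 CPM, the others 38.5 to 39.6). Causes were not tested.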

How the results depend on the processing

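Of 28 called values of members, DESeq2 kept 28 calls, limma-voom 27, the filter of 1 count in any sample 27, the replicate block 26, a fit of only the groups compared 21, the GC content and length offset 21, the study's thresholds 18 and a fold change above 1.5 kept 15. Leaving out 1 library kept 172 of 213. No called value was reversed under these alternatives. Low counts limit Afp, Hp, F5, Alb and the 20 untested members.

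Counts of members called moved by over 1.5 times as follows. With the filter of 1 count in any sample they went at basal from 1 to 2 (FoxK1 KD), 1 to 3 (FoxK2 KD) and 5 to 8 (DKD), for insulin from 5 to 8 (FoxK2 KD) and 4 to 7 (DKD), after insulin from 0 to 1 (FoxK2 KD) and 1 to 2 (DKD), and from 0 to 1 for each of the 3 differences in insulin effect. Of these added calls 1 was of a member that the stricter filter leaves out (Ahsg, insulin in FoxK2 KD), and the others were of members already tested, such as Alb for insulin in FoxK2 KD, whose SE was 0.19 against 0.62. The fold changes of these others stayed close to those of the main fit while their SEs were smaller. Whether the smaller SEs reflect the spread between libraries was not tested. With only the groups compared they went at basal from 1 to 0 (FoxK1 KD), 1 to 0 (FoxK2 KD) and 5 to 2 (DKD), for insulin from 5 to 3 (Control) and 4 to 7 (DKD), and after insulin from 0 to 1 (FoxK2 KD). With the GC content and length offset they went from 1 to 2 (FoxK2 KD, basal), 5 to 2 (DKD, basal) and 0 to 2 (FoxK1 KD after insulin). With the study's thresholds they went from 1 to 4 (FoxK2 KD, basal), for insulin from 5 to 3 (Control), 6 to 3 (FoxK1 KD), 5 to 3 (FoxK2 KD) and 4 to 2 (DKD), after insulin from 0 to 2 (FoxK1 KD) and 0 to 1 (FoxK2 KD), and from 0 to 1 for the FoxK1 KD difference. With a fold change above 1.5 they went from 5 to 2 (DKD, basal) and for insulin from 5 to 3 (Control), 6 to 3 (FoxK1 KD), 5 to 2 (FoxK2 KD) and 4 to 2 (DKD). DESeq2 moved FoxK2 KD after insulin from 0 to 1. Calls over all genes moved as well, given here as genes higher and lower. With only the groups compared they went at basal from 385 and 535 to 31 and 15 (FoxK1 KD), 24 and 19 to 0 and 1 (FoxK2 KD) and 1169 and 1229 to 636 and 663 (DKD). That fit took insulin from 1405 and 1485 to 577 and 508 (Control) and 945 and 908 to 1206 and 1153 (DKD), and FoxK2 KD after insulin from 1 and 2 to 2 and 1. DESeq2 took the last of these to 6 and 4. The GC content and length offset took all genes from 24 and 19 to 61 and 61 (FoxK2 KD, basal), 1169 and 1229 to 843 and 957 (DKD, basal) and 212 and 196 to 274 and 296 (FoxK1 KD after insulin). Of the 23784 genes kept by the filter of 1 count, 4.49%, 1% and 9.25% were called at basal (FoxK1 KD, FoxK2 KD, DKD). Counts over all genes were not taken for the study's thresholds or the fold-change minimum. The causes were not tested.

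Leaving out 1 library gave 0 to 1 calls (FoxK1 KD), 1 (FoxK2 KD) and 3 to 6 (DKD) at basal, 4 to 6 (Control), 3 to 6 (FoxK1 KD), 3 to 5 (FoxK2 KD) and 3 to 4 (DKD) for insulin, 0 to 1 (FoxK1 KD), 0 (FoxK2 KD) and 1 (DKD) after insulin, and 0 for each difference. The libraries behind the changes of over 1.5 times were Control basal replicates 1 and 3 and FoxK1 KD basal replicates 2 and 3 (FoxK1 KD at basal, 0), DKD basal replicate 1 (DKD at basal, 3), FoxK1 KD basal replicate 3 (insulin in FoxK1 KD, 3), FoxK2 KD basal replicates 2 and 3 and insulin replicate 1 (insulin in FoxK2 KD, 3), and Control insulin replicate 3 (FoxK1 KD after insulin, 1).

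No pairing of the samples by replicate number was seen, although groups of 3 or 4 libraries are too small to exclude it. Deviations of same-numbered samples from their group means correlated with a mean r of -0.0134 over 99 pairs, 8 of them above 0.1. Pairs of different numbers had a mean r of 0.00434 over 294 pairs, 41 of them above 0.1. The replicate block moved the count of members called for insulin in FoxK2 KD cells from 5 to 3 and moved no other count by over 1.5 times. Over all genes, 1586 rose and 1512 fell with insulin in FoxK2 KD cells under the block, against 1639 and 1554 without it.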

Other observations

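Among the other plasma proteins, Lbp, Masp1 and Cfi fell with insulin in every genotype by edgeR's test, and they were picked for that after their values were seen. Lbp, the lipopolysaccharide binding protein, fell with insulin in Control (log2 fold change -0.65, SE 0.08, adjusted p = 4.45e-07), FoxK1 KD (-0.43), FoxK2 KD (-0.49) and DKD cells (-0.55). Masp1, a protease of the lectin pathway of complement, fell in all 4 genotypes as well (log2 fold changes of -0.77, -0.60, -0.79 and -0.53 in the same order), as did Cfi, the factor I that inactivates C3b (-0.37, -0.47, -0.50 and -0.34). Other acute-phase or innate immune proteins of the same list went both ways. Some rose with insulin in 1 genotype each, Lcn2 in FoxK1 KD (0.75), Apcs in FoxK2 KD (0.93), and Saa3 (0.61) and Crp (0.31) in DKD cells. C2 fell in Control, FoxK1 KD and FoxK2 KD cells and Serpina1b in Control and FoxK2 KD cells. C4bp fell in FoxK1 KD and C1ra in FoxK2 KD cells. Lbp and Masp1 were higher in FoxK1 KD and DKD cells than in Control at basal (Lbp by 0.44 and 0.53, Masp1 by 0.75 and 0.43) and after insulin (Lbp by 0.66 and 0.63, Masp1 by 0.93 and 0.68), each past the threshold.

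Over the 32 tested genes of the list, insulin raised 5 and lowered 6 in Control cells, where 12.4% of all genes rose and 13.1% fell. It raised 7 and lowered 6 in FoxK1 KD (16.2% and 15.4% of all genes), 6 and 8 in FoxK2 KD (14.4% and 13.7%) and 5 and 5 in DKD cells (8.31% and 7.99%), with medians of -0.06, 0.14, 0.001 and -0.04. Selenop was the only one whose insulin effect differed between a knockdown and Control (0.93, SE 0.16, adjusted p = 0.00151, DKD minus Control).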
